A study of Mus musculus with 12 samples.

Results

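Macrophages taken from the peritoneal cavity of C57BL/6 mice at postnatal week 10 were compared with and without lipopolysaccharide (LPS) under the genotype label Lyz2Cre-BHLHE40-Fl. All genes that reached a value of 1 in 3 or more of the 6 libraries were taken, which gave 18229 of the 53465 genes in the table. Of them, 14356 reached that minimum in all 6 libraries and 1459 in exactly 3, and 1844 genes that reached it in 2 libraries stayed outside. The study holds 12 libraries in 4 groups of 3, in which each of the genotype labels Lyz2Cre and Lyz2Cre-BHLHE40-Fl has control and LPS-treated libraries. In Lyz2Cre mice the Cre recombinase is expressed from the locus of lysozyme 2, a gene used by macrophages, granulocytes and other myeloid cells, so deletion is not limited to peritoneal macrophages and the mice without the floxed gene carry Cre as well. In names of this kind Fl usually marks a floxed gene, one flanked by the sites that Cre joins. The dose and duration of LPS, what the controls received, and whether the 3 replicates of a group were separate animals or cultures, do not appear in the sources used here. The p-values thus measure the spread among these libraries, which may be technical.

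LPS, a glycolipid on the surface of Gram-negative bacteria, is bound by CD14 and by the receptor TLR4 with its partner MD-2. TLR4 signals at the plasma membrane through MYD88 to NF-kB and MAP kinases, and from endosomes through TRIF to IRF3 and the interferon beta gene. Interferon beta then acts back on the macrophage through JAK kinases and STAT factors and induces antiviral genes. BHLHE40 and its paralog BHLHE41 are basic helix-loop-helix repressors that bind E-box sequences, and both are prominent in peritoneal macrophages.

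Bhlhe40 (ENSMUSG00000030103, chromosome 6 from 108660629 to 108666925, plus strand, GRCm38) stood at 8046, 7617 and 8016 in the controls and at 1956, 2415 and 2327 with LPS. Every LPS library lay below every control, a log2 change of -1.83 ± 0.08 (limma adjusted p = 2e-09). In the libraries labelled Lyz2Cre the same gene stood at 4886, 4737 and 5306 in the controls and at 2544, 2212 and 2644 with LPS, so the label that names its loss had the higher controls, and the LPS libraries of both labels overlapped. With 1 value per gene the table cannot be read for single exons, so the deletion is not checked here and the groups are called by their label. Bhlhe41 was at 4871, 4387 and 4726 in the controls and at 2000.1, 2927 and 2780.1 with LPS. Its groups did not overlap either, and it fell by a smaller amount (log2 change -0.88 ± 0.12, limma adjusted p = 5.97e-05). Lyz2, the lysozyme gene at the Cre locus, stood at 172, 200.5 and 138 in the controls and at 831, 779 and 696 with LPS, where its near-identical neighbour may share reads, and rose (log2 change 2.18 ± 0.14, limma adjusted p = 4.95e-08).

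The deposited values are reads scaled by 1 factor for each library. Mean totals of these values were 20073802 in controls and 30832914 with LPS, a ratio of 1.536, whereas the reads themselves came to between 20489417 and 28027299 per library. The 10 genes with the largest rises made up 20.99% of the difference in totals and the 100 largest made up 60.78%. When the 6 libraries were brought to equal totals, the median log2 change went from -0.05 to -0.61 over all genes, and the median shift of a gene was -0.61. Changes are therefore read against that shift, and counts for gene lists are given under both scalings. One LPS library stood apart in genes annotated as rRNA, among which mitochondrial ones are not counted. These genes took 2.09% of the reads in LPS replicate 2 and 0.0683 to 0.248% in the other 5 libraries. Mitochondrial transcripts took 1.2 to 1.63% of the reads in controls, and 0.756, 1.92 and 1.89% in LPS replicates 1, 2 and 3. Of these, the ribosomal RNA mt-Rnr2 took 0.574 to 0.763% in controls and 0.399, 1.39 and 1.38% with LPS. Mitochondrial messenger RNAs took 0.466 to 0.814% in controls and 0.331, 0.392 and 0.386% with LPS. In such bulk samples fewer cells of a type and less RNA per cell cannot be told apart.

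LPS changed 56% of the genes measured. In the limma test 5028 of the 18229 genes rose (27.6%) and 5176 fell (28.4%) at a Benjamini-Hochberg adjusted p below 0.05, and the words rose and fell are used only for genes past that threshold. At least 2-fold changes were seen for 2657 risers (14.6%) and 2864 fallers (15.7%). With the deposited scaling the rises reached further than the falls. At least 10-fold 596 genes rose and 212 fell, at least 100-fold 127 rose and 2 fell, and at least 1000-fold 32 rose and 0 fell. The control level of a gene limits how large a fall can appear. Every LPS library lay above every control for 5444 genes (29.9%) and below for 5774 (31.7%). With equal library totals 2561 genes rose (14%) and 9400 fell (51.6%), so that risers made up 21.4% of the calls in place of 49.3%. All 5176 genes that fell with the deposited scaling fell with equal totals too, whereas 645 of the risers turned into fallers and 2561 remained risers. Without LPS replicate 2 the deposited scaling gave 4581 risers and 4767 fallers, and without LPS replicate 1 it gave 4881 and 4982. A log2 change was taken from log2(value + 1), a scale on which genes with low values appear to change less than they did, and is given with its SE. A mean is given with its SD over 3 libraries. A list is given with the number of its tested members that rose and fell and its median log2 change. The same values with equal totals follow. The first are to be read against 27.6%, 28.4% and -0.05 over all genes, and those with equal totals against 14%, 51.6% and -0.61. Setting genes without reads in a group to their bound moved no list's median by more than 0.103.

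**Figure D1:**
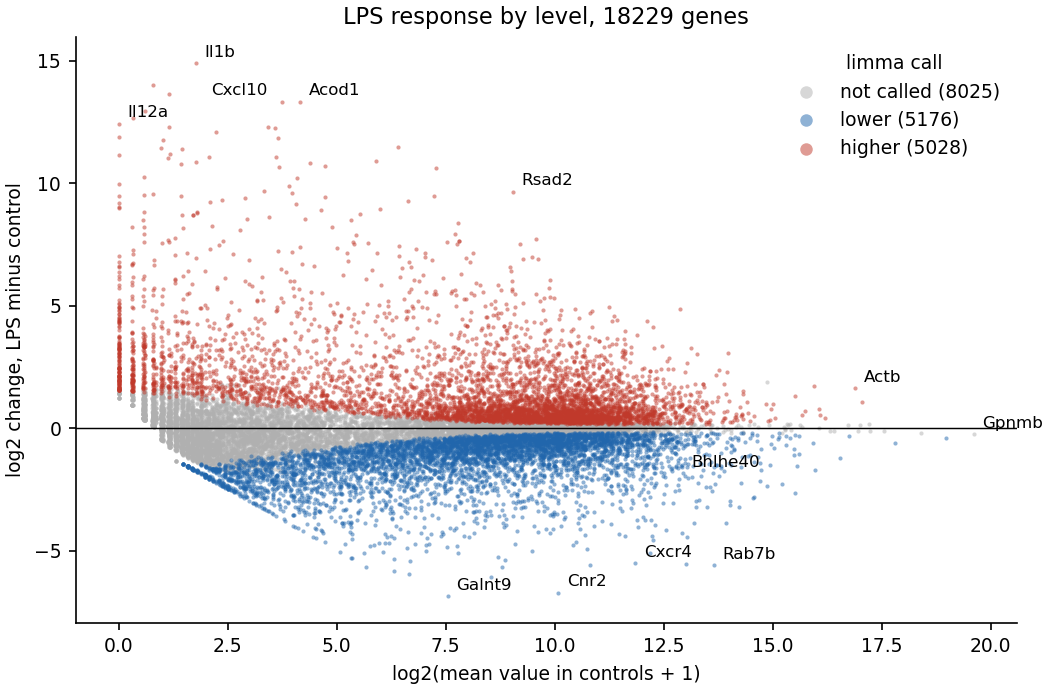
Each point is 1 of the 18229 genes, with the log2 of its mean control value plus 1 on the x axis and its log2 change with LPS on the y axis, and its colour gives the limma call. The largest rises, Il1b among them, are at the left, where control values are low, while Gpnmb, at the far right, lies near 0.

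The strongest rises were in secreted cytokines and chemokines, in enzymes of macrophage activation and in interferon-induced genes, most of which were close to silent in controls. Il1b, which encodes the precursor of interleukin 1 beta, was at 5.8, 0.8 and 0.7 in the controls and at 90526, 81874 and 80179.7 with LPS. Il6, the gene of interleukin 6, was at 0.7, 0.8 and 2.2 in the controls and at 31129.5, 26253 and 25977 with LPS. Il12b, the subunit shared by interleukins 12 and 23, was at 0, 0.8 and 0 in the controls and at 8454, 8094 and 7451 with LPS. In all 3 genes a few reads in the controls stood against high values with LPS in every library. The log2 change was 14.90 ± 0.40 for Il1b (limma adjusted p = 1.26e-11), 13.66 ± 0.21 for Il6 (limma adjusted p = 1.19e-13) and 12.68 ± 0.23 for Il12b (limma adjusted p = 4.43e-13). Il12a, the other subunit of interleukin 12, had no read in any control and values of 5832, 5376 and 5481 with LPS, at least 7446-fold higher when the controls are set at a floor of 3 reads over the group. Il27 rose from 3.73 ± 1.46 to 20202 ± 1679 (log2 change 12.11 ± 0.19, limma adjusted p = 1.61e-13).

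**Figure D2:**
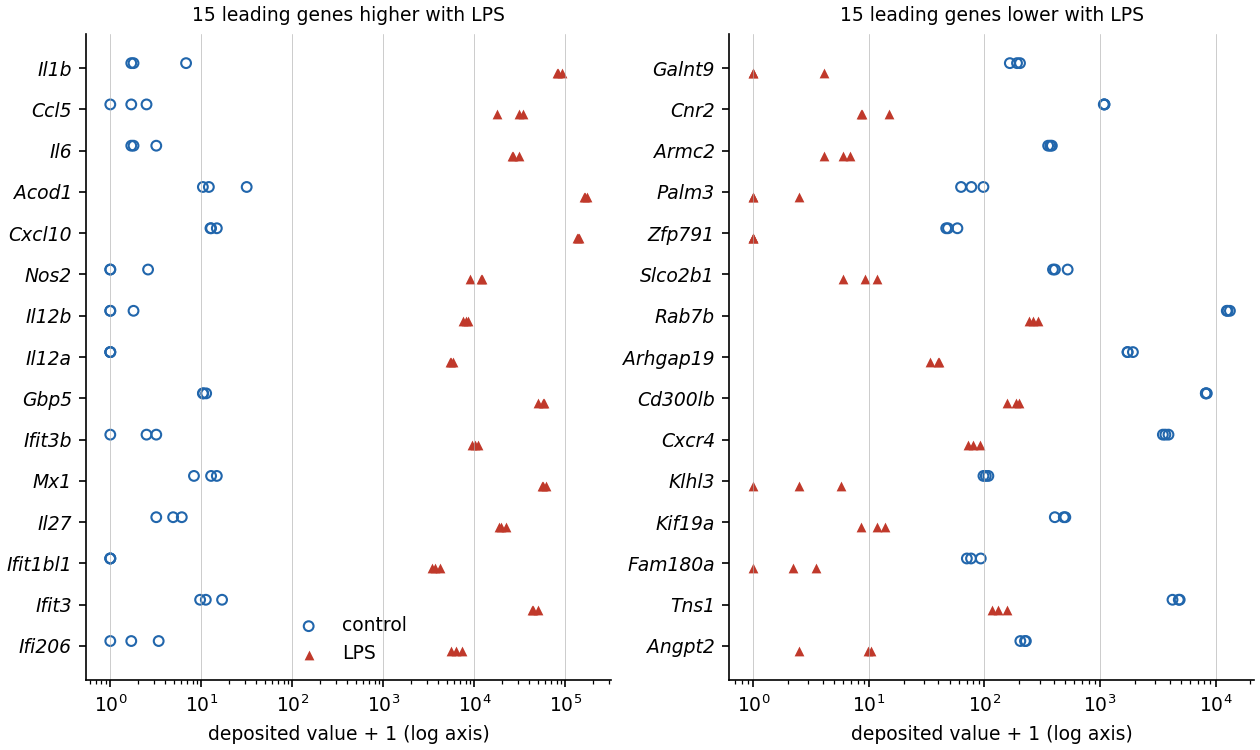
Each row is a gene, with its deposited value plus 1 on a log axis in the 3 control libraries (open circles) and the 3 LPS libraries (triangles). The left panel holds the 15 leading risers and the right panel the 15 leading fallers, and in no row do the groups overlap.

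The cytokine list as a whole moved up: 24 of the 25 tested members rose and 1 fell (median 5.08, with equal totals 23 and 1, median 4.82). Its share of all reads was 0.0415 to 0.0458% in the controls and 1.61 to 1.72% with LPS. Tnf rose from 149 ± 11.8 to 106979 ± 2742, Il1a from 758 ± 63.3 to 162448 ± 6645, and Il1rn, whose product blocks the interleukin 1 receptor, from 2570 ± 188 to 53734 ± 1789. Ifnb1, the interferon beta gene, had no read in any control and 112, 92 and 80.1 with LPS. Il10, whose product restrains inflammation, rose from 25.8 ± 9.36 to 140 ± 30.0, a log2 change of 2.44 ± 0.29. Vegfa, the vascular growth factor gene, was the one member that fell (-1.33 ± 0.10), and Tgfb1 the one riser whose call was lost with equal totals (log2 change 0.47 ± 0.19, limma adjusted p = 0.0491, and -0.15 with equal totals, limma adjusted p = 0.49). These last 7 genes were named after their values had been seen.

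Chemokines, the secreted proteins that attract leukocytes, followed in both families. Of the CC and CX3C chemokines 13 of 15 tested rose and 1 fell (median 5.91, with equal totals 13 and 1, median 5.48), and of the CXC chemokines 8 of 12 rose and 2 fell (median 5.75, with equal totals 8 and 2, median 5.14). Ccl5, an attractant of T cells, was at 1.5, 0 and 0.7 in the controls and at 17714, 34317 and 31129 with LPS, a ratio of 37800.1 with a 95% counting interval from 12934 to 183301 that covers counting error only. Within the LPS group its replicate 1 was the lowest, and all 3 lay far above the controls. Cxcl10, the interferon-inducible ligand of CXCR3, stood at 11.6, 11.8 and 13.8 in the controls and at 134984, 142133 and 138462 with LPS (log2 change 13.34 ± 0.08, limma adjusted p = 1.66e-16). The other ligands of that receptor also rose, Cxcl9 from no read to 2292 ± 71 and Cxcl11 from 0.5 ± 0.866 to 1015 ± 116. Neutrophil-attracting Cxcl2 rose from 11.2 ± 0.751 to 26592 ± 1149, and monocyte-attracting Ccl2 from 224 ± 10.1 to 45524 ± 2755. Ccl12 (log2 change 9.20 ± 0.28) and Ccl22 (9.47 ± 0.59) were close to silent in controls. The 3 members that fell were Ccl6 (log2 change -0.58 ± 0.10), Cxcl12 (-1.34 ± 0.28) and Cxcl14 (-0.82 ± 0.21), named after their values had been seen.

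Ligands of the TNF superfamily and acute-phase genes rose with them. In the TNF superfamily 10 of 13 tested ligands rose and 2 fell (median 3.47, with equal totals 10 and 2, median 2.91). Tnfsf10, which encodes the death ligand TRAIL, rose from 9.1 ± 4.68 to 7746 ± 249, Tnfsf15 from 18.2 ± 5.14 to 7027 ± 279.8 and Tnfsf9, the ligand of 4-1BB, from 17.6 ± 3.13 to 1934 ± 268, while Tnfsf4, the OX40 ligand gene, had no read in any control and 1235, 880.1 and 903 with LPS. All 10 tested acute-phase genes and lipocalins rose (median 3.17, with equal totals 10 and 0, median 2.88). Among them were the serine protease inhibitor genes Serpina3f (log2 change 11.03 ± 0.38) and Serpina3g (6.25 ± 0.10), members of a cluster of similar copies, the pentraxin Ptx3 (8.69 ± 0.33) and the siderophore-binding Lcn2 (5.25 ± 0.43).

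Genes of the TLR4 receptor complex, its adaptors and its kinases changed in both directions. Of these 21 genes 13 rose, 6 of them at least 2-fold, and 4 fell. With equal totals 7 rose and 8 fell, and the median moved from 0.56 to -0.05. Tlr4 stood at 4267, 4279.8 and 4043 in the controls and at 4330.2, 3682 and 3658 with LPS, with overlapping groups and no call (log2 change -0.11 ± 0.08, limma adjusted p = 0.245, named after its value was seen), and with equal totals its log2 change was -0.73 (limma adjusted p = 5.48e-06). LPS replicate 1 lay above the 3 controls and the other LPS libraries below them, and without replicate 1 the log2 change was -0.19 and was called (limma adjusted p = 0.0234). The co-receptor Cd14 rose from 1431 ± 149 to 12006 ± 433, and the adaptor Myd88 from 845 ± 56 to 8184 ± 584. The kinase-binding Tab2 (log2 change 1.67 ± 0.10) and the kinase Ikbke (1.56 ± 0.17) rose less, and these 4 genes also rose with equal totals. Other microbial sensors moved more: 16 of 19 rose and 3 fell (median 2.78, with equal totals 16 and 3, median 2.17). Zbp1, a sensor of Z-form nucleic acids, rose from 85.8 ± 8.11 to 11519 ± 2828, the bacterial lipoprotein receptor Tlr2 from 512 ± 42.9 to 43648 ± 1259, and Ifih1, the double-stranded RNA sensor MDA5, from 956 ± 134 to 62302 ± 2262.

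Genes of the NF-kB system, both the DNA-binding subunits and the inhibitors that hold them back, rose. All 19 tested members of their list, which also holds the adaptor Traf1, rose (median 2.80, with equal totals 18 and 0, median 2.18). Nfkbia, the inhibitor that holds NF-kB in the cytoplasm and is itself an NF-kB target, was at 496, 441 and 372 in the controls and at 19342, 22066 and 23721 with LPS. Nfkbiz, a nuclear member that assists secondary gene induction, was at 168, 180 and 169 in the controls and at 12245, 11994 and 11873 with LPS. Nfkbie and the adaptor Traf1 followed with log2 changes of 5.49 ± 0.10 and 5.61 ± 0.09. Each of these 4 genes was separated from its controls in every library. Suppressors of cytokine signalling rose in 5 of 8 cases and fell in 1 (median 2.64, with equal totals 5 and 3, median 2.02), led by Socs1 (log2 change 6.63 ± 0.18), Socs3 (6.29 ± 0.10) and Cish (6.03 ± 0.31). MAP kinase phosphatases were mixed, with 6 of 12 higher and 2 lower (median 0.79, with equal totals 4 and 5, median 0.17): Dusp2 (2.32 ± 0.15) and Dusp16 (2.14 ± 0.11) rose and Dusp3 fell from 9159.6 ± 294 to 2277 ± 68.9. Of the AP-1, ATF, EGR, NR4A and KLF factors 17 of 25 rose and 3 fell (median 1.10, with equal totals 13 and 5, median 0.49), with the largest changes at the nuclear receptor Nr4a3 (7.14 ± 0.28), Batf2 (6.08 ± 0.11), Maff (3.71 ± 0.16) and Junb (3.23 ± 0.10).

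The interferon arm rose from its transcription factors to its effectors. Of the interferon regulatory factors 6 of 8 tested rose and 0 fell (median 1.97, with equal totals 6 and 2, median 1.35), and of the JAK kinases and STAT factors 11 of 11 rose (median 1.82, with equal totals 9 and 1, median 1.21). Irf7, the factor that amplifies type I interferon, was at 211, 207 and 207 in the controls and at 52447, 49999.7 and 52976 with LPS, and Irf1 rose from 936 ± 86.8 to 49343 ± 1234. Stat2 rose from 543 ± 21.3 to 17247 ± 3825, and the kinase Jak2 from 1851 ± 217 to 32572 ± 1400.1. All 31 tested antiviral interferon-stimulated genes rose under either scaling (median 6.44, and 5.83 with equal totals), and their share of all reads was 0.101 to 0.107% in the controls and 5.93 to 6.17% with LPS. Rsad2, the antiviral enzyme viperin, and Cmpk2, a mitochondrial nucleotide kinase encoded beside it, were among the 10 genes with the highest mean values after LPS, uncorrected for gene length. Rsad2 stood at 514, 563 and 504 in the controls and at 442386, 429948 and 410003 with LPS (log2 change 9.66 ± 0.07, limma adjusted p = 4.06e-16). Ifit2, an RNA-binding protein gene, rose from 84.6 ± 16.9 to 244673 ± 13233, its relative Ifit3 from 11.6 ± 3.8 to 45513 ± 3424, and Ifit3b from 1.23 ± 1.12 to 10137 ± 777. Mx1, an antiviral GTPase gene that is disrupted in C57BL/6 mice, rose at the RNA level from 11 ± 3.33 to 57753 ± 3467. Ifit3 and Ifit3b are near copies, so reads between them can be split by the counting, and the same holds for Ifit1bl1 (11.88 ± 0.20) and for Ifi206 (11.78 ± 0.34), a member of the clustered PYHIN family.

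All 19 guanylate-binding proteins and immunity-related GTPases, which attack the vacuoles of intracellular microbes, rose under either scaling (median 7.51, and 6.89 with equal totals). Gbp5 stood at 9.5, 10.3 and 9.4 in the controls and at 49683, 58091 and 56477 with LPS (log2 change 12.31 ± 0.09, limma adjusted p = 4.06e-16). Gbp4 (log2 change 9.42 ± 0.21), Iigp1 (9.91 ± 0.32) and Tgtp2 (9.34 ± 0.22) followed, all in gene clusters where reads may be split between near copies. The list took 0.0155 to 0.0162% of the reads in controls and 1.36 to 1.49% with LPS.

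Genes of NF-kB, STAT and interferon regulatory factors rose, and letters that such factors recognise can be looked for in promoters. Shown are promoters of 5 leading risers, chosen because they hold a match, so its presence follows from the choice. Leading risers without a match were passed over. Promoters of Nfkbia and Bhlhe41 are shown as those of an NF-kB target and of a paralog of the labelled gene. RefSeq promoters (GRCm38.p6, 250 bases before to 50 after the start) were matched by symbol, and a promoter was found for 11590 of the 18229 genes. That is too few to compare motif shares between all risers and all fallers, and no such comparison is made. Searched on both strands, with N for any base, were the core of the interferon-stimulated response element (ISRE, 2 copies of GAAA with 2 bases between them), TTCNNNGAA (a STAT site), a 10-base form of the NF-kB site (GGGATTTTCC in Il6 and GGAAATTCCC on the other strand in Nfkbia), TGANTCA (AP-1), TGACGTCA (CRE) and CACGTG (an E-box). A match is a description of letters, not a binding site, and a window without one says only that these letters are not in it. Capitals mark the matches in the sequences below, each written 5′ to 3′ on the strand of its gene.
Il6 (chr5:30012864-30013163, plus strand), with AP-1 and NF-kB matches: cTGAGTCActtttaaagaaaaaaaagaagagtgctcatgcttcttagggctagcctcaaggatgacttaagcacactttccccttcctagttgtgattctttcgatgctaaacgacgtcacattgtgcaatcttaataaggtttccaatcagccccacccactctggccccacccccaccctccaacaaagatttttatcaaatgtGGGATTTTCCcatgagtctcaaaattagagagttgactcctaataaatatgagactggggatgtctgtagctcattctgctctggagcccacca
Cxcl10 (chr5:92348840-92349139, minus strand), with ISRE and AP-1 matches: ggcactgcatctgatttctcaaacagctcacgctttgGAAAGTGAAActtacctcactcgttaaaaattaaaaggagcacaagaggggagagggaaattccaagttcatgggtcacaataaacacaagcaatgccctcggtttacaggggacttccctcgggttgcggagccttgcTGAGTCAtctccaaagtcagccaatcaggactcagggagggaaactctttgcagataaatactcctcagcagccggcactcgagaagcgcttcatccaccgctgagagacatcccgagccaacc
Gbp5 (chr3:142496684-142496983, plus strand), with STAT, ISRE, NF-kB and STAT matches in that order: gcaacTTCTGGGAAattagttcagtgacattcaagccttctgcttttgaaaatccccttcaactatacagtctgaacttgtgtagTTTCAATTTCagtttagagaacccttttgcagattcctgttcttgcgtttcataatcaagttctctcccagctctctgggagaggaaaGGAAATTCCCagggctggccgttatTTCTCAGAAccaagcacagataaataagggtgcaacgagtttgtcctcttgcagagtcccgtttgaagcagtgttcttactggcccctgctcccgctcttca
Ifit3b (chr19:34607707-34608006, plus strand), with 2 ISRE matches and an AP-1 match: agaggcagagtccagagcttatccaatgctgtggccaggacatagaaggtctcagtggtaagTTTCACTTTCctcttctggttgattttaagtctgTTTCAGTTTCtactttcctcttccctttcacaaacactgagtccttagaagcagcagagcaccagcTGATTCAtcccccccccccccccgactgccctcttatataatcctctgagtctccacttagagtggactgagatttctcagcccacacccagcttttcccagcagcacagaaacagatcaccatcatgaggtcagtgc
Ifit3 (chr19:34583279-34583578, plus strand), with 2 ISRE matches and an AP-1 match: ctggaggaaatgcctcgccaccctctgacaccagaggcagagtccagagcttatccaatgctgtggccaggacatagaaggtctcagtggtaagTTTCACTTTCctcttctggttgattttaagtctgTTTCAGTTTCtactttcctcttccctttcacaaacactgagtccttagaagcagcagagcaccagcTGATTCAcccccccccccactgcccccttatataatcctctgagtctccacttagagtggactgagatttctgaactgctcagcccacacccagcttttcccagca
Nfkbia (chr12:55492598-55492897, minus strand), with an NF-kB match and shown after its match was seen: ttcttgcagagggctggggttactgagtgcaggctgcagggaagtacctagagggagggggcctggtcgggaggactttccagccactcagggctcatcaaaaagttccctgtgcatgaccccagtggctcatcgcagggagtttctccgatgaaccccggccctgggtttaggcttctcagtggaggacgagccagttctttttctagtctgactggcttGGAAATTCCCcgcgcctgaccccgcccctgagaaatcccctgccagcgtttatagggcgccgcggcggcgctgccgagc
Bhlhe41 (chr6:145865371-145865670, minus strand), with an E-box match and shown after its match was seen: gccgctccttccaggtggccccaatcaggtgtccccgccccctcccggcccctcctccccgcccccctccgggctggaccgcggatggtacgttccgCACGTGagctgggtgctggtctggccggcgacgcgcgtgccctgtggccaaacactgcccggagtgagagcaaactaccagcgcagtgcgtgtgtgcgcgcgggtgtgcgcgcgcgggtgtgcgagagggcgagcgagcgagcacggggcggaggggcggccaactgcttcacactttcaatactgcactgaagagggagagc

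The ISRE letters were frequent in the antiviral list. Of its 25 members with a promoter in the table, 14 held the ISRE core, against 3.99% of the 11590 tested genes with a promoter. Of the 16 NF-kB genes with a promoter, 5 held the NF-kB form, against 2.1% of those tested genes. Of the 15 clock genes with a promoter, 5 held CACGTG, against 11.3% of those tested genes. Other motifs were frequent in these lists as well. The STAT site was held by 5 of the 16 NF-kB genes and 7 of the 25 antiviral members, against 8.32% of those tested genes. AP-1 letters were in 3 and 7 of them, against 6.73%. No antiviral member held the NF-kB form, and no NF-kB gene held the ISRE core. The lists were chosen with earlier results of these data known, and these shares were not tested. In Il6 the NF-kB match began 44 bases before the start, and in Cxcl10 the ISRE match began 213 bases before it. In Ifit3b and Ifit3 the pairs of ISRE matches had the same letters, TTTCACTTTC and TTTCAGTTTC, and began 188 and 154 bases before the start in Ifit3b and 156 and 122 in Ifit3.

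Genes of MHC class I presentation rose in 16 of 18 cases and fell in 2 (median 2.48, with equal totals 15 and 2, median 1.87). Nlrc5, the transactivator of class I genes, rose from 518 ± 36.1 to 25387 ± 358, and the peptide transporter Tap1 from 861 ± 112 to 34453 ± 1772. The class Ib genes H2-Q7 (4.74 ± 0.16) and H2-Q6 (4.68 ± 0.15) rose as well, with reads that near copies in the H2-Q cluster may share. All 5 subunits of the immunoproteasome and its activator rose (median 3.39, with equal totals 5 and 0, median 2.77), with Psmb9 going from 315 ± 63.3 to 4988 ± 482, Psmb10 from 1278 ± 34.5 to 14465 ± 1135 and Psmb8 from 1629.8 ± 198 to 14571 ± 1824. The constitutive proteasome differed in size: 26 of 31 subunits rose and 1 fell with a median of 0.64, and with equal totals 10 rose and 8 fell with a median of 0.02. MHC class II genes rose in 7 of 12 cases and fell in 1 (median 0.82, with equal totals 5 and 3, median 0.29), among them the class II transactivator Ciita (log2 change 2.91 ± 0.19), H2-Ab1 (1.79 ± 0.08) and the invariant chain Cd74 (1.08 ± 0.07).

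Costimulatory and activation molecules of the cell surface rose, with 17 of 18 higher and 1 lower (median 4.39, with equal totals 15 and 1, median 3.77). Cd69, an early activation marker, rose from 15.9 ± 4.04 to 19813 ± 1001, Icam1, the adhesion ligand of LFA-1, from 618 ± 34.6 to 74344 ± 4633, and Clec4e, the mycobacterial glycolipid receptor Mincle, from 183 ± 58.7 to 34575 ± 3330.1. The checkpoint receptor gene Havcr2 was the one that fell (log2 change -4.28 ± 0.24, named after its value was seen). Receptors of the TNF superfamily rose in 7 of 15 cases and fell in 3 (median 0.53, with equal totals 6 and 6, median -0.09), of which Cd40 stood at 25.4, 29.2 and 21.7 in the controls and at 49753, 40910.3 and 42599 with LPS. Cd40 is the receptor of the T cell ligand CD154, and its groups lay far apart. In the same list the TNF receptor Tnfrsf1b went from 9854 ± 475 to 79490.3 ± 3408 and Fas from 102 ± 11.3 to 1226 ± 93.4.

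Genes of the inflammasome, the complex that matures interleukin 1 beta, rose in 11 of 16 cases and fell in 4 (median 0.52, with equal totals 7 and 7, median -0.10). Nlrp3 stood at 96, 107 and 95.7 in the controls and at 10718, 11506 and 11475 with LPS, with every LPS library far above the controls. The pyrin gene Mefv (log2 change 5.20 ± 0.18) and Casp4, the mouse caspase-11 that senses cytosolic LPS (4.30 ± 0.10), rose too, and Nlrp1b fell (-4.12 ± 0.42).

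Genes of arginine use and nitric oxide synthesis changed in both directions. Nos2, the inducible nitric oxide synthase, was at 0, 1.6 and 0 in the controls and at 8979.9, 12224 and 11804 with LPS (log2 change 12.95 ± 0.32, limma adjusted p = 5.84e-12). The arginine transporter Slc7a2 rose from 709 ± 92.5 to 88904 ± 899, and Ass1, which rebuilds arginine from citrulline, from 11.3 ± 6.47 to 321 ± 47.5. The mitochondrial arginase Arg2 rose from 8.23 ± 1.55 to 188 ± 20.3, while Arg1, the cytosolic arginase linked to alternative activation, fell from 904 ± 138 to 289 ± 10.9 (named after its value was seen). Over the list 7 of 13 members rose and 4 fell (median 0.75, with equal totals 6 and 6, median 0.13).

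Acod1, the enzyme that makes itaconate from a tricarboxylic acid (TCA) cycle intermediate, stood at 30.5, 11.1 and 9.4 in the controls and at 172130, 162232 and 158888 with LPS (log2 change 13.34 ± 0.30, limma adjusted p = 3.01e-12). Its list otherwise holds TCA cycle enzymes and related ones, among them Idh1 and Pdk1, which are not enzymes of the cycle itself. In that list 8 of 26 members rose and 10 fell (median -0.09, with equal totals 2 and 20, median -0.71). Idh1, the cytosolic isocitrate dehydrogenase, fell from 7744 ± 197 to 399 ± 39.2. The mitochondrial Idh2 (log2 change -1.12 ± 0.09) and the pyruvate dehydrogenase kinase Pdk1 (-1.70 ± 0.11) also fell. Glycolysis had no common direction, with 9 of 25 members higher and 10 lower (median 0.06, with equal totals 6 and 15, median -0.54). The hexose transporter Slc2a6 rose from 266 ± 12.1 to 29136 ± 2358, hexokinase Hk2 from 1929.7 ± 9.81 to 13361 ± 1111 and phosphofructokinase Pfkp from 3217 ± 29.7 to 10324 ± 446, whereas the glucose transporter Slc2a3 fell from 99.3 ± 4.79 to 20.1 ± 4.34. Respiratory chain subunits encoded in the nucleus turned with the scaling: 17 of 41 rose and 4 fell with the deposited values, and 1 rose and 27 fell with equal totals. Of 13 mitochondrially encoded messenger RNAs 6 had no read in any of the 6 libraries, and of the 7 others 1 rose and 0 fell, or 0 and 6 with equal totals (median -0.15, then -0.77).

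Prostaglandin and leukotriene genes changed in both directions. Ptgs2, the inducible cyclooxygenase, stood at 137, 76.6 and 82.6 in the controls and at 63789.8, 60278 and 54948 with LPS. Ptges, the prostaglandin E synthase that acts after it, rose from 95.8 ± 8.83 to 2124 ± 72.8, while the prostaglandin D synthase Hpgds fell from 10115 ± 1458 to 1313 ± 111. In the whole list 8 of 20 members rose and 11 fell (median -0.65, with equal totals 4 and 12, median -1.27). Of the long noncoding RNAs and microRNA host genes 5 of 17 rose and 2 fell (median 0.12, with equal totals 5 and 10, median -0.50). The antisense transcripts Ptgs2os (log2 change 3.14 ± 0.56) and Ptgs2os2 (8.17 ± 0.44) rose, and since no source used here gives the strand setting, their reads cannot be told apart from those of overlapping genes. Mir155hg, the host gene of the inflammatory microRNA miR-155, had 0.7, 0.8 and 0 in the controls and 1984, 1726 and 1643 with LPS.

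Lipid and sterol genes were mixed. Ch25h, the interferon-inducible cholesterol 25-hydroxylase, rose from 14.7 ± 2.72 to 2312 ± 163, while the fatty acid-binding Fabp4 fell from 9632 ± 1059 to 1219 ± 56.1 and Soat1, the enzyme that turns cholesterol into stored esters, from 38104 ± 1116 to 7771 ± 502. Lipid handling genes rose in 6 and fell in 10 of 21 cases (median -0.22, with equal totals 2 and 15, median -0.81), and sterol synthesis and uptake genes in 10 and 8 of 26 (median 0.04, with equal totals 4 and 17, median -0.58). Dhcr7, the last reductase of cholesterol synthesis, fell (log2 change -2.42 ± 0.16).

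Antioxidant genes and iron genes were mixed as lists, with large single changes. Of the NRF2 and antioxidant genes 8 of 23 rose and 10 fell (median -0.18, with equal totals 5 and 15, median -0.80). Sod2, the mitochondrial superoxide dismutase and an NF-kB target, rose from 1368 ± 33.1 to 22630.5 ± 1472, and the cystine carrier Slc7a11 from 255 ± 31.2 to 3010.2 ± 159. Cybb, the membrane subunit of the phagocyte NADPH oxidase, rose from 16090 ± 1541 to 135931 ± 6193, and over the 7 oxidase genes 6 rose and 1 fell, or 2 and 2 with equal totals. Among 18 iron genes 9 rose and 8 fell (median 0.13, with equal totals 7 and 10, median -0.49). The iron exporter Slc40a1, ferroportin, fell from 132 ± 23.6 to 3.13 ± 1.27, and Hamp, which encodes the hormone hepcidin that removes ferroportin from the surface, had no read in any control and 73.7, 69 and 77.6 with LPS.

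Amino acid transporters and targets of the stress factor ATF4 rose more often than they fell. Of the amino acid transporters 12 of 17 rose and 4 fell (median 1.12, with equal totals 10 and 4, median 0.50), with Slc7a5 (log2 change 3.37 ± 0.09) beside Slc7a2 and Slc7a11, and Slc43a2 fell from 5050.2 ± 291 to 321 ± 19.9. Targets of ATF4 and the serine pathway rose in 15 of 18 cases and fell in 0 (median 1.22, with equal totals 12 and 3, median 0.61). Asparagine synthetase Asns rose from 737 ± 50.3 to 4320 ± 305, the folate enzyme Mthfd2 from 1443 ± 92.8 to 7564 ± 484, Phgdh, the first enzyme of serine synthesis, from 140.2 ± 20.3 to 666 ± 41.2, and the stress regulator Nupr1 from 151 ± 10.3 to 1673 ± 131. The chaperones of the endoplasmic reticulum moved the other way as a list, with 3 of 20 higher and 11 lower (median -0.28, with equal totals 1 and 18, median -0.90). Hspa5, the chaperone BiP, nevertheless rose (log2 change 1.10 ± 0.08), while Herpud1 (-1.22 ± 0.12) and the sensor Atf6 (-0.91 ± 0.07) fell.

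The 15 leading fallers are described singly. Galnt9, a transferase that starts O-linked glycans, stood at 190.5, 165 and 202 in the controls and at 0, 3.1 and 0 with LPS (log2 change -6.86 ± 0.51, limma adjusted p = 2.12e-07). Cnr2, the cannabinoid receptor of immune cells, stood at 1078, 1093 and 1091 in the controls and at 14, 7.7 and 7.5 with LPS, so that every control was far above every LPS library (112-fold lower, log2 change -6.72 ± 0.22, limma adjusted p = 8.11e-11). Rab7b, a late endosomal GTPase known to speed the degradation of TLR4, stood at 13319, 12509 and 12721 in the controls and at 288, 241 and 260.5 with LPS. It fell 48.9-fold (log2 change -5.61 ± 0.08, limma adjusted p = 7.31e-14). The activating receptor Cd300lb fell from 8296 ± 95.1 to 179 ± 22.1, the GTPase activator Arhgap19 from 1797 ± 112 to 36.9 ± 3.8, and the focal adhesion protein tensin, Tns1, from 4648 ± 355 to 134 ± 20.6. Slco2b1, an organic anion transporter, fell from 441 ± 72.8 to 7.97 ± 2.86, and Angpt2, angiopoietin 2, from 218 ± 12.8 to 6.57 ± 4.4. Zfp791, a zinc finger gene, had values of 57.4, 47.4 and 45.7 in controls and no read in any LPS library, at least 38-fold lower when the LPS group is set at 3 reads. Armc2, Palm3, Klhl3, Kif19a and Fam180a had log2 changes of -6.06 ± 0.25, -5.85 ± 0.46, -5.41 ± 0.54, -5.38 ± 0.22 and -5.33 ± 0.47. Cxcr4, described with the chemokine receptors, completes the 15 leading fallers.

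Receptors of chemokines, cytokines and bacterial peptides changed in both directions. Of the chemokine receptors 5 of 16 rose and 7 fell (median -0.25, with equal totals 3 and 8, median -0.86). Cxcr4, the receptor of CXCL12, stood at 3916, 3501 and 3681 in the controls and at 91.3, 70.5 and 78.9 with LPS, with no overlap (log2 change -5.52 ± 0.11, limma adjusted p = 8.87e-13). Cxcr3 (log2 change -4.33 ± 0.49) and the fractalkine receptor Cx3cr1 (-4.27 ± 0.49) fell from low control levels, and Cxcr2 from 22 ± 6.25 to no read. Receptors for cytokines and growth factors were mixed, 14 of 28 higher and 8 lower (median 0.42, with equal totals 11 and 12, median -0.20): the interleukin 15 receptor Il15ra rose from 89.3 ± 13.3 to 8468 ± 277 and the interleukin 6 receptor Il6ra fell from 1167 ± 31.8 to 107 ± 1.42, opposite to the rise of Il6. The formyl peptide receptor Fpr2, which senses bacterial peptides, had no read in any control and 699, 741 and 680 with LPS, and the adenosine receptor Adora2a rose from 16.9 ± 5.33 to 2903 ± 281. Of their list 7 of 16 rose and 3 fell (median 0.78, with equal totals 7 and 7, median 0.44).

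Transcription factors of macrophage identity changed in both directions. Of 25 myeloid lineage factors 10 rose and 10 fell, and with equal totals 3 rose and 15 fell. Pparg, a lipid-sensing nuclear receptor, stood at 3236, 2516 and 2794 in the controls and at 137, 150.3 and 134 with LPS. Cebpa, a factor of the myeloid lineage, stood at 3516, 4094 and 3832 in the controls and at 316, 244 and 297 with LPS. In both genes the highest LPS library was far below the lowest control. Ikzf1 rose (log2 change 2.70 ± 0.07). Among chromatin enzymes, 14 of 34 higher and 11 lower (median 0.12, with equal totals 7 and 20, median -0.50), the interferon-inducible Setdb2 rose from 365 ± 46.7 to 5306 ± 168 and the histone demethylase Kdm6b from 75.4 ± 11.3 to 445 ± 24.2, while Hdac5 fell from 1496 ± 105 to 149.8 ± 25.6 and the DNA methyltransferase Dnmt3a from 26698 ± 429.5 to 6051 ± 263.

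Genes of the circadian clock were lower with LPS under either scaling: 14 of 18 fell and 1 rose (median -1.18, with equal totals 1 and 16, median -1.78). The output factors Dbp and Tef, which the clock drives through E-boxes, fell from 260.5 ± 11.4 to 11 ± 2.54 and from 1536 ± 141 to 174 ± 30.2, and the repressors Per2 and Per3 from 144 ± 21.8 to 19.4 ± 4.78 and from 179 ± 15.2 to 31.3 ± 6.81. Bhlhe40 and Bhlhe41 belong to this list and are described above. The exception was Nfil3, a repressor of the same output sites, which rose (log2 change 2.02 ± 0.09, named after its value was seen).

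Lysosomal genes fell more often than they rose. Gpnmb, a glycoprotein of lysosome-rich macrophages, took more reads than any other gene in both groups, at 854513, 773841 and 801999 in the controls and at 722267, 690162 and 653312 with LPS, with no call (log2 change -0.23 ± 0.12, limma adjusted p = 0.115). Without LPS replicate 1 it was called lower (log2 change -0.27, limma adjusted p = 0.0486). With equal totals the same gene fell (log2 change -0.85, limma adjusted p = 1.77e-05). Psap, the saposin precursor, fell from 515629 ± 22705 to 385626 ± 17782, and cathepsin D, Ctsd, from 228552 ± 16084 to 150758 ± 2428. Of 29 lysosomal hydrolases and membrane proteins 6 rose and 16 fell (median -0.23, with equal totals 2 and 25, median -0.85), and the list's share of reads was 13.8 to 14% in the controls and 7.49 to 8.04% with LPS. The acid lipase Lipa fell from 64284 ± 5368 to 19628 ± 1176 and the cholesterol carrier Npc1 from 11875 ± 514 to 5542 ± 355, while Ctsc, which activates serine proteases, rose from 2837 ± 120 to 13406 ± 414. Of 27 autophagy genes 6 rose and 17 fell (median -0.40, with equal totals 3 and 21, median -1.02), among them Atg7 (-1.58 ± 0.08), Ulk2 (-1.33 ± 0.09) and Gabarapl1 (-1.30 ± 0.08). Subunits of the lysosomal proton pump turned from 5 higher and 6 lower of 17 to 2 and 12 with equal totals, and Atp6v0a1 fell under either scaling (-1.72 ± 0.08 and -2.34).

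Genes of DNA replication fell in 14 of 24 cases and rose in 5 (median -0.46, with equal totals 2 and 19, median -1.07), and mitotic genes fell in 8 of 20 and rose in 4 (median -0.37, with equal totals 2 and 15, median -0.99). Mcm2, part of the replicative helicase, fell from 443 ± 24.6 to 165 ± 18.6 and E2f1 from 335 ± 42.7 to 140.1 ± 34.8, but cyclin E1, Ccne1, rose from 78 ± 2.31 to 599 ± 43.8. Mki67, the gene of the Ki-67 antigen of cycling cells, rose from 594 ± 52.1 to 2167 ± 132. Of the cell cycle inhibitors and D cyclins 7 of 15 rose and 6 fell (median 0.09, with equal totals 4 and 6, median -0.49). Ccnd2, a D cyclin, rose from 28.8 ± 11 to 8468 ± 794, and Cdkn1a, the cell cycle inhibitor p21, from 357 ± 48.7 to 6609 ± 881. Ribosomal protein genes depended on the scaling: 16 of 44 cytosolic members rose and 1 fell with a median of 0.36, and with equal totals 0 rose and 22 fell with a median of -0.25.

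**Figure D3:**
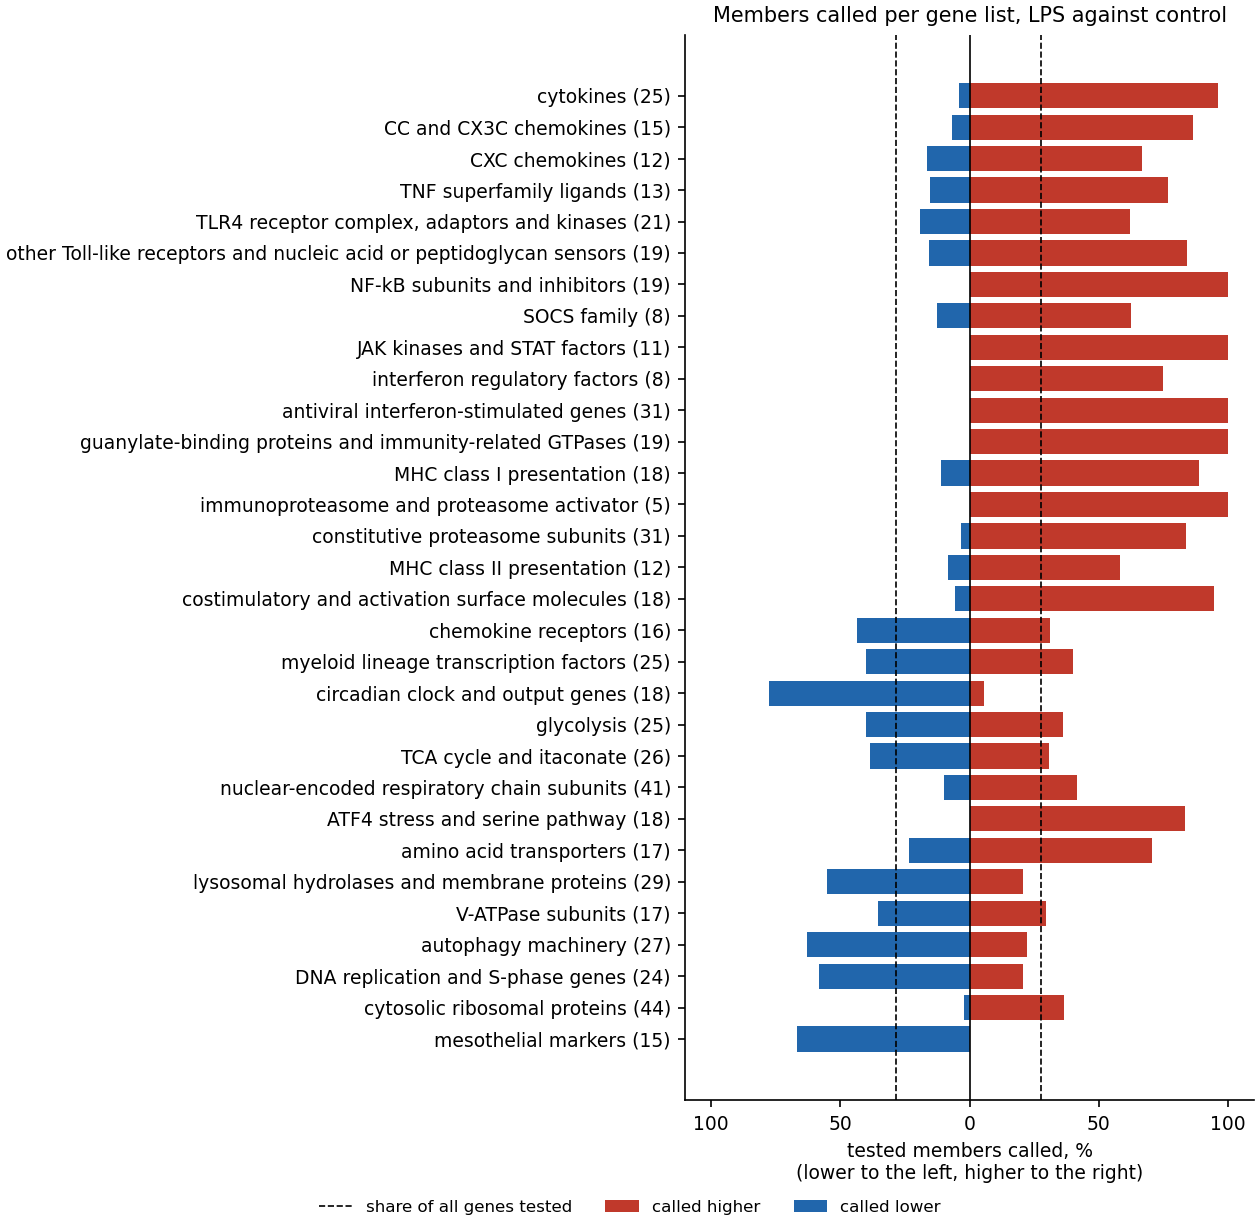
Bars give the percentage of tested members called higher (right) or lower (left) with LPS in 31 gene lists, with the number tested in brackets, and dashed lines mark the shares over all genes, 27.6 and 28.4%. The interferon, NF-kB and cytokine lists are almost wholly to the right, and the clock, autophagy and mesothelial lists mostly to the left.

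**Figure D4:**
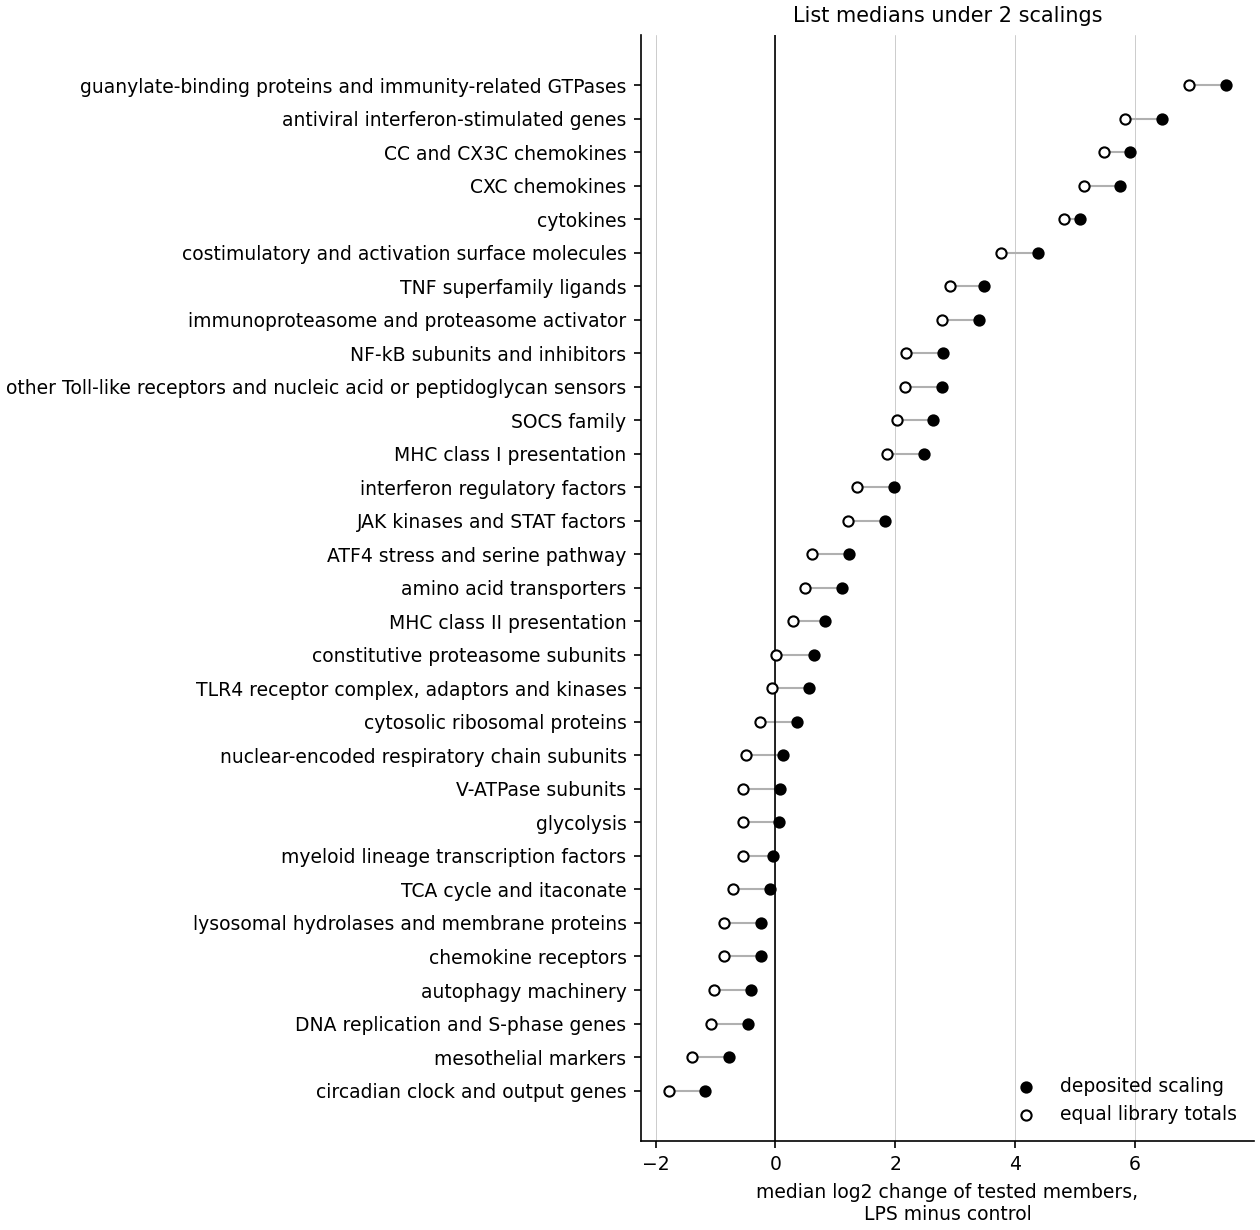
Each row joins a list's median log2 change with the deposited scaling (filled) to that with equal library totals (open). The cytokine, NF-kB and interferon lists stay above 0 in both, whereas the medians of the TLR4 complex, ribosomal proteins, respiratory chain, proton pump and glycolysis cross it.

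Genes that act outside the cell or on its surface were also mixed. Complement genes rose in 9 of 17 cases and fell in 5 (median 0.34, with equal totals 7 and 9, median -0.28): the alternative pathway factor Cfb went from 0.233 ± 0.404 to 358 ± 77.8, while Cd93 fell from 30063 ± 430.3 to 5909 ± 316. Metalloproteinases and their inhibitors rose in 9 of 17 cases and fell in 7 (median 1.05, with equal totals 8 and 8, median 0.46), with the collagenase Mmp13 going from 51.2 ± 4.97 to 1764 ± 83.4, Adamts4 from 17.3 ± 2.71 to 708 ± 27.8 and the inhibitor Timp1 from 60.1 ± 8.72 to 1478 ± 172. Among scavenger receptors 8 of 21 rose and 9 fell (median -0.18, with equal totals 7 and 14, median -0.80): the oxidised lipoprotein receptor Olr1 rose from 8.8 ± 4.66 to 647 ± 67.9 and the apoptotic cell receptor Axl from 947 ± 101 to 15754 ± 699. The high-affinity IgG receptor Fcgr1 rose from 637 ± 96.6 to 5879 ± 602 and the low-affinity Fcgr3 fell from 9205 ± 995 to 3191 ± 267, in a list with 4 of 6 higher and 2 lower (median 0.82, with equal totals 3 and 2, median 0.20). In the Rab family, 20 of 30 higher and 6 lower (median 0.45, with equal totals 10 and 13, median -0.17), Rab32 rose from 1043 ± 71.6 to 10372 ± 401, opposite to Rab7b. In the BCL2 family, 7 of 16 higher and 4 lower (median 0.01, with equal totals 5 and 10, median -0.61), Bcl2a1a (5.02 ± 0.27) and Bcl2a1d (4.44 ± 0.16), near copies of each other, rose and the pro-apoptotic Bmf fell (-2.96 ± 0.18).

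The cell type label was checked against marker genes. General macrophage markers took 1.57 to 1.79% of the reads in controls and 1.33 to 1.39% with LPS, and 8 of 16 rose and 3 fell (median 0.46, with equal totals 6 and 7, median -0.16). Cd68 stood at 44204 ± 4262 and 41444 ± 2367, with no call (log2 change -0.09 ± 0.09, limma adjusted p = 0.418) but a fall with equal totals (-0.71, limma adjusted p = 9.32e-06). Adgre1, the F4/80 antigen, stood at 5635 ± 245 and 12480.3 ± 1206, and Csf1r at 9366 ± 277 and 5991 ± 279.7. Markers of resident large peritoneal macrophages were uneven: Gata6, their defining factor, stood at 333 ± 39.9 in controls and 178 ± 21.9 with LPS, but Timd4 at only 3.2 ± 0.693 and 74.9 ± 3.56. Of that list 6 of 24 rose and 6 fell (median -0.01, with equal totals 6 and 14, median -0.61). Markers of small peritoneal macrophages and monocytes took 0.0229 to 0.0269% and 0.0143 to 0.0149% of the reads, and 3 of 12 rose and 3 fell (median 0.04, with equal totals 3 and 6, median -0.57). Cd68, Adgre1, Csf1r and Gata6 were named after their values had been seen.

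Markers of other cells that the cavity can hold took small shares of the reads. Mesothelial markers fell in 10 of 15 cases and rose in 0 (median -0.78, with equal totals 0 and 13, median -1.39), and their share of reads was 0.0124 to 0.0166% in the controls and 0.0052 to 0.00653% with LPS, with Lrrn4, a mesothelial surface protein, at 608 ± 124 and 257 ± 58.1. Fibroblast markers took 0.0559 to 0.0728% in controls and 0.0472 to 0.0619% with LPS, ranges that overlap. Of 14 members 4 rose and 1 fell (median 0.10, with equal totals 2 and 6, median -0.48). In the same order, neutrophil markers took 0.00915 to 0.00954% and 0.0138 to 0.0151%, with 3 of 6 tested higher and 3 lower (median 0.32, with equal totals 3 and 3, median -0.29), and Ly6g, Retnlg and Stfa2l1 had no read in any of the 6 libraries. B cell markers took 0.0013 to 0.00178% and 0.000581 to 0.000827% (3 of 9 higher, 2 lower, median 0.26, with equal totals 1 and 3, median -0.23). Mast cell and eosinophil markers took 0.00183 to 0.00218% and 0.000745 to 0.000835% (0 of 6 higher, 2 lower, median -0.84, with equal totals 0 and 3, median -1.32). Dendritic cell markers took 0.000671 to 0.000758% and 0.0012 to 0.00131% (4 of 7 higher, 0 lower, median 0.90, with equal totals 3 and 0, median 0.29). T and NK cell markers took 0.000243 to 0.000302% and 0.00335 to 0.00427% (1 of 4 higher, 0 lower, median -0.62, with equal totals 1 and 0, median -0.97), of which Lck, at 37.2 ± 5.42 and 1133 ± 146, made up nearly all, while Cd3e, Ncr1 and Prf1 had no read. Endothelial and erythroid markers took 0.0163 to 0.0182% and 0.00974 to 0.0102% (3 of 5 higher, 1 lower, median 1.12, with equal totals 2 and 1, median 0.50), with no read for the 4 globin genes of the list. The part of these cells in the changes above was not tested.

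The 4 leading genes of each direction were set beside the libraries labelled Lyz2Cre. They were chosen for the size of their change under the Lyz2Cre-BHLHE40-Fl label, which by itself favours a larger change there. The interaction term of a limma fit over all 12 libraries called 3885 of the 18229 genes (21.3%), 1977 of them with a higher and 1908 with a lower change under the BHLHE40-Fl label, and all 8 genes were among them. With equal totals the term called 2626 genes with a higher and 1465 with a lower change. Il1b (chromosome 2 from 129364570 to 129371139, minus strand) stood at 186, 161 and 497 in Lyz2Cre controls and at 26143, 30749 and 29658 with LPS, a log2 change of 6.86 that differed from the one given above by 8.03 ± 0.60 (limma adjusted p = 6.03e-08). Its BHLHE40-Fl-labelled libraries were lower in controls and higher with LPS. Ccl5 (chromosome 11 from 83525778 to 83530518, minus strand) stood at 496, 464 and 283 and at 17030.1, 16009.9 and 19693, a difference in change of 8.57 ± 0.41 (limma adjusted p = 4.21e-10). Acod1 (chromosome 14 from 103046977 to 103056573, plus strand) stood at 8869, 9513 and 11316 and at 291908, 297188 and 286229, a difference of 8.45 ± 0.37 (limma adjusted p = 1.72e-10). Both were lower in the BHLHE40-Fl-labelled controls, while with LPS Acod1 was lower and Ccl5 overlapped between the labels. Il6 (chromosome 5 from 30013114 to 30019981, plus strand) stood at 10.8, 14.6 and 26 and at 67177, 74013 and 73561, so that both its control and its LPS values were lower under the BHLHE40-Fl label and the change differed by 1.63 ± 0.35 (limma adjusted p = 0.00258). With a pseudocount of 5 in place of 1 that difference was 0.41 and was not called (limma adjusted p = 0.268).

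The log2 change of all 4 fallers was more negative under the BHLHE40-Fl label. Galnt9 (chromosome 5 from 110544355 to 110621380, plus strand) stood at 227, 193 and 219 in Lyz2Cre controls and at 9.7, 15.2 and 3.1 with LPS, a difference in log2 change of -2.28 ± 0.73 (limma adjusted p = 0.0346). Cnr2 (chromosome 4 from 135895394 to 135920207, plus strand) stood at 942, 914 and 827 and at 22.2, 17.9 and 17.1, a difference of -1.23 ± 0.28 (limma adjusted p = 0.00399). Armc2 (chromosome 10 from 41914990 to 42018442, minus strand) stood at 38.5, 31.6 and 53.6 and at 5.6, 2.8 and 1.6, a difference of -2.70 ± 0.51 (limma adjusted p = 0.000931). Palm3 (chromosome 8 from 84021471 to 84030295, plus strand) stood at 11.5, 7.3 and 20.9 and had no read with LPS, a difference of -2.13 ± 0.69 (limma adjusted p = 0.0377). Since Palm3 had no read in that LPS group, its fall in the Lyz2Cre libraries is known only as a lower bound, and which label had the larger fall cannot be read. For Armc2 and Palm3 the control levels under the BHLHE40-Fl label, 369 ± 13.7 and 78.3 ± 17.8, were the higher ones, and the LPS levels overlapped. Cnr2 was higher in the controls and lower with LPS under that label. The calls for Galnt9 and Palm3 were weak: leaving out any of 10 of the 12 libraries in turn ended the call for Galnt9 and any of 9 of them that for Palm3. With edgeR on recovered reads the difference for Palm3 was -0.38 and was not called (edgeR adjusted p = 0.814).

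**Figure D5:**
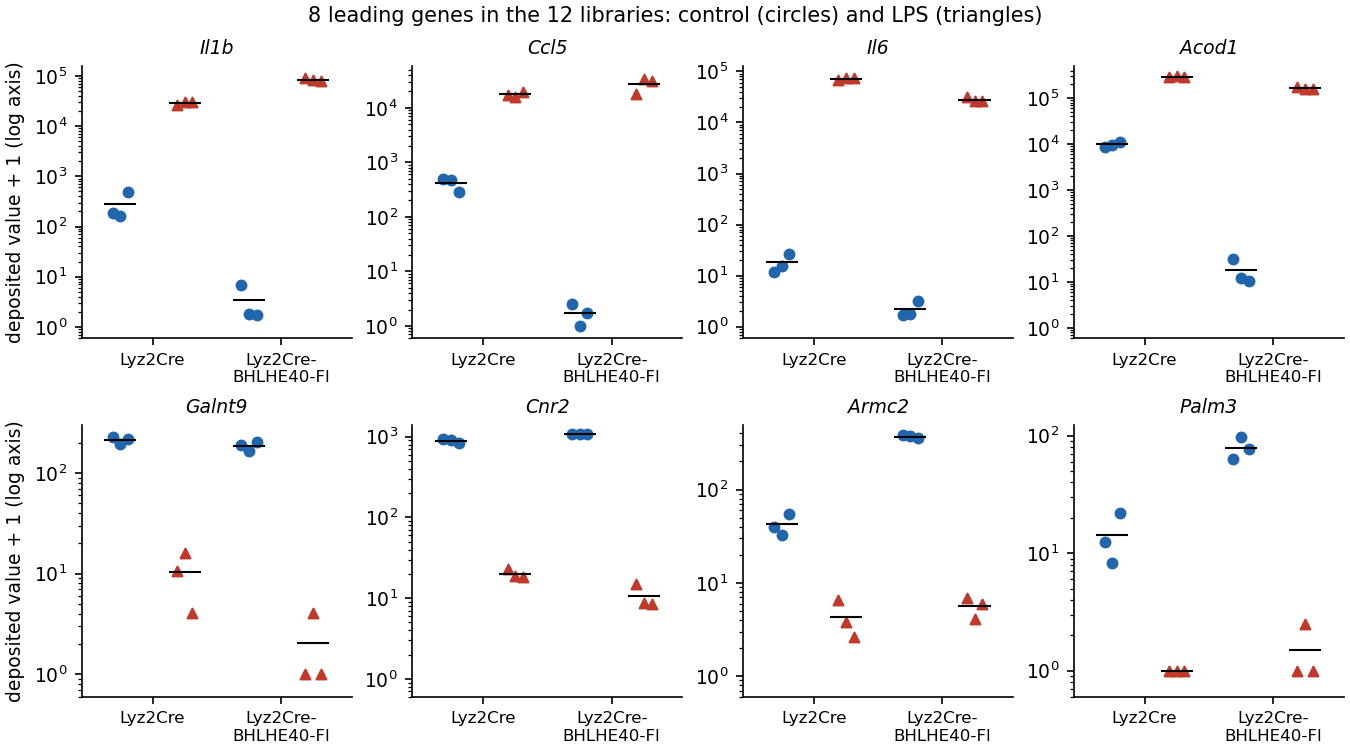
Each panel shows 1 gene, with its deposited value plus 1 on a log axis in control (circles) and LPS libraries (triangles) of both labels, and a bar at the mean of 3 libraries. For Il1b, Ccl5 and Acod1 the controls labelled Lyz2Cre-BHLHE40-Fl lie well below the Lyz2Cre controls, and for Armc2 and Palm3 they lie above.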

How the data were processed

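RNA of 12 libraries was measured, and the 3 control and 3 LPS libraries labelled Lyz2Cre-BHLHE40-Fl were compared. The deposited signal is 1 table of values per gene that the authors made from reads divided by a factor per library and rounded to 1 decimal, as read from the values. Per the submitters' processing notes STAR, Cufflinks and Cuffdiff were used with build mm10. The counter, the annotation and the strand setting are not given in the sources. Whole reads were recovered from the steps of the values in 100% of cases (tolerance 0.06 in units of the deposited value), and 1 read was worth 0.725 to 0.789 in controls and 1.17 to 1.53 with LPS. A value of 0 thus sets a lower limit on the level in a control than in an LPS library. Intervals and floors (3 reads over a group) cover counting error only.

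limma 3.58.1 (R 4.3.3) was fitted to log2(value + 1) of the 18229 genes in the 6 libraries, with a trend in variance and Benjamini-Hochberg adjustment over all of them (threshold 0.05), and with 1 mean per group in all 12 libraries for the difference between labels. Alternatives were 4 other scalings, 2 pseudocounts, 2 filters, robust variances, a replicate block, each library left out, and edgeR 4.0.16 and DESeq2 1.42.0 on recovered reads, which called 4811 and 4887 genes higher and 5225 and 4529 lower. The fit to 6 libraries was also run on simulated data with few genes changed and no general shift of totals. That run covers neither the scaling nor the difference between labels. The members and the 76 gene lists (1348 genes, 1281 tested) were chosen with earlier results of these data known. Named are Bhlhe40, Bhlhe41 and Lyz2, then the 15 largest changes each way among called genes with no overlap and a mean of at least 50 (leaving out mitochondrial, histone, small RNA, antigen receptor and predicted genes), and the 10 highest genes per group. Of each list up to 4 members with the largest change could be named (for other cell types, those with the highest mean); other names are said to have been chosen after their values were seen. Promoters come from RefSeq (GRCm38.p6), gene coordinates from GENCODE M21, in which 18195 of the genes were found.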

Additional observations from a re-analysis of the deposited data

Results flagged for a closer look

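The LPS change differed between the 2 genotype labels, by the interaction term of limma over 12 libraries, for the 8 genes examined, which had been chosen for the size of their change under the Lyz2Cre-BHLHE40-Fl label. The difference in log2 change (that label minus Lyz2Cre) was 8.03 for Il1b, 8.57 for Ccl5, 8.45 for Acod1 and 1.63 for Il6, each a larger rise. It was -2.28 for Galnt9, -1.23 for Cnr2, -2.70 for Armc2 and -2.13 for Palm3, each a more negative change. Palm3 had no read in the Lyz2Cre LPS libraries, so its fall there is only a lower bound and the sizes of its 2 falls cannot be compared. For Il1b, Ccl5 and Acod1 the Lyz2Cre controls lay between 161 and 11316, where the BHLHE40-Fl-labelled controls held at most 30.5, and for Armc2 and Palm3 the BHLHE40-Fl-labelled controls were the higher ones.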

How the results depend on the processing

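The counts of called genes depended on the scaling. With equal library totals 2561 genes rose and 9400 fell, 1728 and 5657 of them at least 2-fold, against 5028, 5176, 2657 and 2864 with the deposited scaling. Equal totals lower the LPS values relative to the controls by the ratio of the totals. The medians of 26 of 76 lists changed sign. Every other alternative kept the counts of rises and falls over all genes within 1.5 times. Between 4204 and 5138 genes rose and 4411 to 5789 fell over all of them. Quantile normalization gave 4204 and 5789, and leaving out 1 library gave 4522 to 4881 and 4411 to 4982. Counts of list members called were less stable. Of them 63 moved by more than 1.5 times with equal totals and 37 with quantile normalization. No other alternative moved more than 7. With quantile normalization 5 myeloid lineage factors rose and 14 fell, in place of 10 and 10. Of the genes named, Tgfb1 reversed with equal totals (-0.15) and lost its call when any of 5 of the 6 libraries was left out, and with TMM, quantile normalization, a pseudocount of 0.1, robust variances and DESeq2. Tlr4 was called lower with equal totals, quantile normalization (-0.74) and without LPS replicate 1, and Cd68 with equal totals (-0.71) and quantile normalization (-1.03). Gpnmb was called lower with equal totals, robust variances, edgeR, DESeq2 and without LPS replicate 1, and Hspa5 lost its call with quantile normalization. The differences between labels called for Il6, Galnt9 and Palm3 were lost in the cases given above and, for Galnt9, with a pseudocount of 5 (-0.998) and, for Palm3, with a pseudocount of 0.1 (-1.33); the cause was not tested. Between control and LPS libraries of the same replicate number, deviations from the group means were hardly correlated (-0.0004, -0.0413 and 0.0315). Whether such libraries came from the same animal cannot be read from these values. With the replicate number as a block 4998 genes rose and 5097 fell, and of the named values the block ended 1 call, the difference for Palm3. Where an LPS group held no more than 3 reads, the depth limits how large a fall can appear.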

Other observations

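Genes that use or break down NAD and tryptophan rose in 8 of 13 tested cases and fell in 3 (median 0.94, with equal totals 6 and 4, median 0.32). Cd38, an ectoenzyme that consumes NAD, rose from 116 ± 18.2 to 4259.5 ± 138. Kynu and Kmo, enzymes of the kynurenine pathway, rose from 2.97 ± 2.45 to 116 ± 23.5 and from 0.8 ± 1.39 to 41.4 ± 7.75. Leukocyte integrins, the adhesion receptors of the cell surface, were mixed, with 8 of 16 higher and 6 lower (median 0.14, with equal totals 7 and 8, median -0.48). Itgal, the alpha chain of LFA-1 and thus of the receptor for Icam1, rose from 438 ± 27.2 to 5562 ± 66.8, and Itga4 from 1127 ± 89.3 to 7247 ± 536, while Itgb3 fell from 1629 ± 51.2 to 272 ± 28.1. C-type lectin receptors, which bind sugars of microbes and cells, rose in 5 of 17 cases and fell in 8 (median -0.78, with equal totals 4 and 10, median -1.37), with Clec2i falling from 277 ± 29 to 25.1 ± 6.82 and Clec5a rising from 303 ± 9.05 to 1437 ± 149.

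Genes linked to alternative activation, the state induced by interleukin 4, rose in 7 of 15 cases and fell in 4 (median 0.06, with equal totals 6 and 6, median -0.52). Besides Ccl22, the chemokine Ccl17 rose from no read in any control to 32.8, 15.3 and 38.8, and the receptor gene Flt1 from 29.5 ± 2.38 to 389.7 ± 68.5. Of the fallers 3 changed at least 2-fold, and Arg1, described with the arginine genes, belongs to this list and fell. Regulators of G-protein signalling were mixed, 3 of 9 higher and 4 lower (median -0.18, with equal totals 3 and 5, median -0.79), with Rgs14 rising from 368 ± 6.84 to 2089.7 ± 45.4. Hypoxia-inducible factors and targets outside glycolysis rose in 7 and fell in 10 of 20 cases (median -0.24, with equal totals 4 and 14, median -0.86): Epas1, the second hypoxia-inducible alpha subunit, fell from 4189.5 ± 195 to 1071 ± 52.7, and the peptide hormone Adm rose from 62.2 ± 5.79 to 281 ± 52.3. In the pentose phosphate pathway 2 of 8 genes rose and 5 fell (median -0.41, with equal totals 1 and 6, median -1.03), among them Shpk, the sedoheptulose kinase, which fell from 77.5 ± 21.7 to 17.5 ± 6.66. Among the heat shock chaperones 7 of 17 rose and 4 fell (median 0.21, with equal totals 3 and 11, median -0.41), and Hspa1b, which has a near-identical neighbour, rose from 22.2 ± 3.72 to 153 ± 12.3.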
